A study of Mus musculus with 12 samples.

Results

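The genes described here are 10 that write, read or remove methyl groups on cytosine in DNA: Dnmt1, Dnmt3a, Dnmt3b, Dnmt3l, Tet1, Tet2, Tet3, Uhrf1, Trim28 and Tdg. They were picked by name from the 55401 genes of the count tables, and all 10 were found. RNA was measured in 12 libraries of mouse embryos at the 8-cell stage, each library made from 10 pooled embryos. All embryos came from B6129F1 females of 3-5 weeks mated to B6CBAF1 males, and all were injected as zygotes with siRNA together with H2B-EGFP (150 ng/µl). The groups were control (non-targeting siRNA, 15 µM, n = 2), Nr5a2 KD (Nr5a2 siRNA, 5 µM, n = 3), Klf5 KD (Klf5 siRNA, 10 µM, n = 3) and Nr5a2 Klf5 dKD (both siRNAs, n = 4). NR5A2 is an orphan nuclear receptor and KLF5 a zinc-finger transcription factor, and the study asked how the 2 act together on gene expression before implantation. An siRNA injected at the zygote stage lowers a transcript and does not delete the gene, so each group is a model of partial loss. The labels do not say whether libraries of a group came from separate collections of embryos, so p-values measure the spread between these libraries, which may be partly technical.

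In mammals, methylation sits mainly on the cytosine of CpG dinucleotides. DNMT3A and DNMT3B place new methyl groups, and DNMT3L, which has no catalytic activity of its own, stimulates them. DNMT1 copies the pattern onto the new strand at replication, guided by UHRF1, which recognises hemimethylated CpGs. The TET enzymes oxidise 5-methylcytosine with alpha-ketoglutarate as cofactor, and TDG excises the oxidised bases. TRIM28 is recruited by KRAB zinc-finger proteins such as ZFP57 and protects methylation at imprinted genes and retrotransposons. Cleavage-stage embryos lose most of the methylation inherited from the gametes, while imprinted regions keep theirs.

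Libraries held 6676683-12560926 counts on genes. The mitochondrial share of counts was 4.41-13.2%, and 4 libraries were below 7% (Nr5a2 KD replicate 3, Klf5 KD replicate 1, and dKD replicates 3 and 4), whereas both control libraries were at 13.2% and 12.9%. Markers of the 8-cell embryo were detected in all groups (8 of 8, summed level 241-316 CPM, counts scaled to a common library size). Single markers moved in opposite directions within this sum. From control to Nr5a2 KD, mean Tfap2c went from 62.1 to 30.7 CPM, Krt8 from 2.85 to 13, Krt18 from 1.7 to 11 and Esrrb from 19.7 to 40.7. Pou5f1, Cdh1 and Sall4 were also lower and Zfp42 higher, by less. Of 10 cumulus and granulosa markers, 5-7 were at 0 in each group (summed level 0.236-4.95 CPM). The summed level of oocyte transcripts, in CPM, was 84.6-108 in Klf5 KD, below the control range of 146-153; Nr5a2 KD libraries were at 107-151 and dKD libraries at 74.4-156. Blastocyst and trophectoderm markers, such as Tead4, Hand1 and Gata3, summed to 147-153 CPM in control, 96.4-127 in Klf5 KD, 60.7-90.8 in dKD and 53.3-86.9 in Nr5a2 KD, a sum carried by Tead4 (98.2 CPM on average in control, 47.9 in Nr5a2 KD) and Hand1 (46.3 and 6.87). Gata3 went the other way, from 4.63 in control to 9.55 in Nr5a2 KD, 7.2 in Klf5 KD and 9.02 in dKD. The part of these markers in the results was not tested. As a check of the labels, Nr5a2 stood at 14.7% of its control level in Nr5a2 KD and 13.7% in dKD, and Klf5 at 24.5% in Klf5 KD and 12.3% in dKD. Klf5 also stood at 30.6% of control in Nr5a2 KD, so this group was low in both transcripts. In Klf5 KD against control the fall of Klf5 itself had an adjusted p of 0.0996 (edgeR).

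To show the DNA around the start sites of the members, promoters were taken from RefSeq (GRCm38.p6, 250 bases before to 50 bases after each annotated start). All 10 genes matched, with 17 promoter windows. Each window was searched on both strands for CAAGGNCA (a loose NR5A2 motif) and CCNCNCCC (a GC-rich box bound by KLF factors). Of 32851 promoters of the same length, 6.71% held the first and 49.5% the second. Among the members' windows, 2 of 17 held CAAGGNCA and 14 of 17 held CCNCNCCC; windows of 1 gene can overlap, and so can matches. The 2 windows with CAAGGNCA belonged to Dnmt3b, with the match 26 bases before the start, and to the most upstream of the 3 starts of Dnmt1, with the match 228 bases before it. The Dnmt3b window also held 9 matches to CCNCNCCC. The 3 Dnmt3a windows held no CAAGGNCA, and the one at the start inside the gene held 14 matches to CCNCNCCC, the highest number among the 17. The Tet2 window, with 2 matches to CCNCNCCC and none to CAAGGNCA, is shown because Tet2 varied most among the Klf5 KD libraries of the 9 members above a few counts. The GC content of the 17 windows ran from 51.3% to 82.3%. Matches are in capitals in the 4 windows printed here; they are letters in a window, and binding was not measured.
Dnmt3b, chr2:153649199-153649498, plus strand, CAAGGNCA from base 225 and CCNCNCCC matches elsewhere: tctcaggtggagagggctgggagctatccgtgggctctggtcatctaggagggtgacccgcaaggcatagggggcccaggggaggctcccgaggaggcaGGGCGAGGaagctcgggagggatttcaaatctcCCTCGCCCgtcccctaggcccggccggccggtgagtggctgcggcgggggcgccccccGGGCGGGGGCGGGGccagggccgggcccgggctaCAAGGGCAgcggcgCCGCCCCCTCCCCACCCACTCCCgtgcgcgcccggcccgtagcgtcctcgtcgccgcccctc
Dnmt3a, internal start, chr12:3891494-3891793, plus strand, CCNCNCCC matches: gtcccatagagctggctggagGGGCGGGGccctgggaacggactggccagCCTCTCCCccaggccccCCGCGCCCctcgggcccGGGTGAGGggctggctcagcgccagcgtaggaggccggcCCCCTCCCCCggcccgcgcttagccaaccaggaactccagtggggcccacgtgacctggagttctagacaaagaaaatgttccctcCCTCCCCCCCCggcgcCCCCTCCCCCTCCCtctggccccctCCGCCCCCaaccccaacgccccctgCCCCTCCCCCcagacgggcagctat
Dnmt1, upstream start, chr9:20959839-20960138, minus strand, CAAGGNCA match from base 23 on the opposite strand: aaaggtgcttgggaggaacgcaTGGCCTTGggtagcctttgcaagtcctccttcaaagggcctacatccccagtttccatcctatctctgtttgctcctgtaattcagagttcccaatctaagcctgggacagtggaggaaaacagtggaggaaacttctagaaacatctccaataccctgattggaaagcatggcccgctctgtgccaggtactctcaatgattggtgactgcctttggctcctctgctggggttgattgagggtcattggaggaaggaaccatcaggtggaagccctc
Tet2, chr3:133544341-133544640, minus strand, CCNCNCCC matches: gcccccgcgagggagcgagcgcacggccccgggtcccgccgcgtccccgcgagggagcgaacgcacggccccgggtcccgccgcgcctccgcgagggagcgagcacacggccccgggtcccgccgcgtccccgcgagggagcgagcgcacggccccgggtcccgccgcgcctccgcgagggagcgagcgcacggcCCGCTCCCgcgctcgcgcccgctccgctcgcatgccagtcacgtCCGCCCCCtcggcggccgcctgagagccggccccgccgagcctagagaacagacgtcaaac

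Levels of different genes were compared per length, as RPKM over all annotated exons of a gene. In control embryos Trim28 (21.2 ± 0.857 RPKM, SD, n = 2) and Dnmt3l (16.9 ± 0.0284) were far above the other 8 genes. Tet1 followed at 4.24 ± 0.0458, then Dnmt3a at 2.04 ± 0.103 and Dnmt3b at 1.68 ± 0.598, whose ranges overlapped. Dnmt1 (0.76 ± 0.16), Tet2 (0.713 ± 0.00435) and Uhrf1 (0.625 ± 0.632) were lower and each overlapped its neighbour in the order. Tet3 was at 0.11 ± 0.0146, and Tdg was at 0 or 1 count. The maintenance enzyme ranked 6 of 10 and its guide 8 of 10 in control, and the accessory protein DNMT3L had the highest transcript level of the DNMT family in every group. Trim28, Dnmt3l and Tet1 kept the first 3 places in all 4 groups. Below them the order changed: Dnmt3a stood above Dnmt3b in control and in Klf5 KD, and Dnmt3b stood above Dnmt3a in Nr5a2 KD and in dKD. Annotated length pools all isoforms, and counts per gene do not separate the transcripts of alternative starts, which Dnmt1, Dnmt3a, Dnmt3l and Uhrf1 have among the promoters above.

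**Figure D1:**
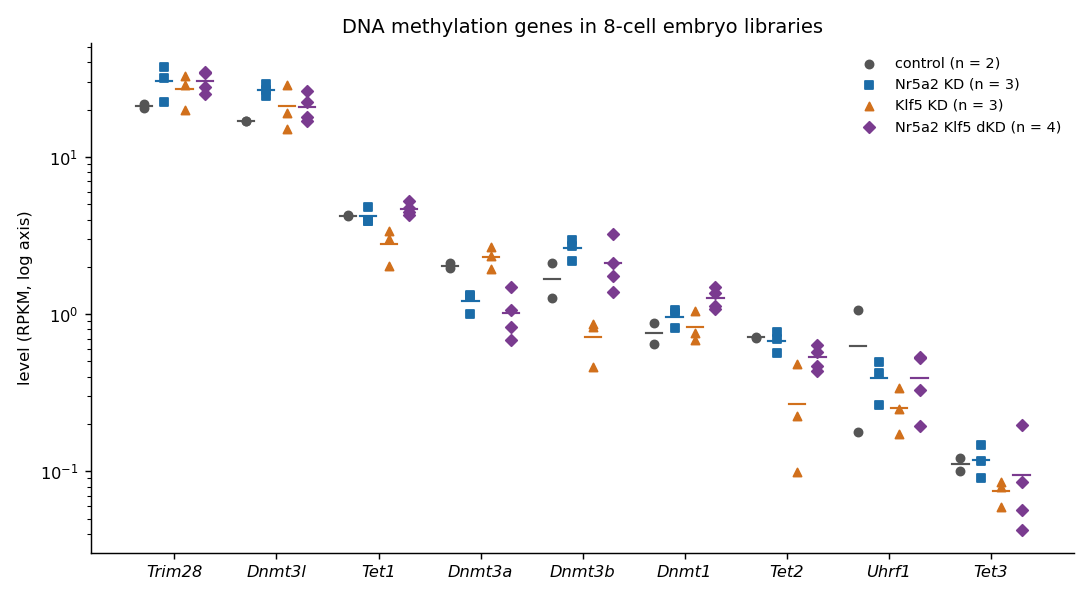
Level of 9 members in each of the 12 libraries, in RPKM on a log axis, with 1 point per library and a line at each group mean; Tdg is left out because 9 of its 12 values are 0. Trim28 and Dnmt3l lie highest in every group, and in Klf5 KD the Dnmt3b points (0.458-0.862) lie below those of the other 3 groups.

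Dnmt3a encodes 1 of the 2 active de novo methyltransferases. It lies on GRCm38 at chr12:3806007-3914443 (plus strand) and shares 133 exonic bases, 0.799% of its length, with Dnmt3aos. Its level, in CPM after TMM scaling (a scaling that makes most genes comparable between libraries), was 32.7 and 35.2 in the control libraries and 32.2, 44.4 and 39.2 CPM in Klf5 KD. It was 21.8, 22.2 and 16.7 CPM in Nr5a2 KD and 25, 17.6, 11.3 and 13.7 CPM in dKD. Every library that had received Nr5a2 siRNA was below every library that had not. In such bulk libraries, fewer cells that make a transcript and less RNA per cell cannot be told apart. Against control, the log2 fold change was -0.72 (SE 0.253, adjusted p = 0.101, edgeR quasi-likelihood test with Benjamini-Hochberg adjustment) in Nr5a2 KD and -0.97 (SE 0.304, adjusted p = 0.0728) in dKD. Neither passed the threshold of 0.05, although the groups did not overlap in either comparison. In Klf5 KD the log2 fold change was 0.19 (SE 0.283, adjusted p = 0.89), with overlapping groups. With library sizes set from the ERCC spike-ins, the value became 0.02 in Nr5a2 KD and -0.22 in dKD (adjusted p = 0.628), while the median of all genes moved to 0.82 and 0.84. The libraries of low mitochondrial share had the lowest Dnmt3a levels of Nr5a2 KD and dKD. Without them the dKD value was -0.64 (adjusted p = 0.185) and that of Nr5a2 KD -0.60 (adjusted p = 0.134), and with the share as a covariate they were -0.61 and -0.53.

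Dnmt3b encodes the other active de novo enzyme, at chr2:153649450-153687730 (plus strand), with no exonic base shared with another gene. Its level was 10.8 and 6.44 CPM in control and 15.1, 11.2 and 13.9 CPM in Nr5a2 KD. In Klf5 KD it was 2.34, 4.25 and 4.4 CPM, from 26, 36 and 30 counts, the lowest 3 values of the 12. In dKD it was 7.08, 10.8, 16.4 and 8.97 CPM, which overlapped the control range. The 3 Klf5 KD libraries were thus below all others, and the dKD libraries, which had also received Klf5 siRNA, were not. Against control, the log2 fold change was -1.24 in Klf5 KD (SE 0.453, unadjusted p = 0.0175, adjusted p = 0.537, edgeR), with a mean level at 42.6% of control. With the mitochondrial share as a covariate it was -0.68 (adjusted p = 0.961). It was 0.67 in Nr5a2 KD (SE 0.354, adjusted p = 0.278), where all 3 libraries were above both controls, and 0.38 in dKD (SE 0.404, adjusted p = 0.619). With single libraries left out these ran from 0.34 (without control replicate 2) to 1.06 (without control replicate 1) in Nr5a2 KD and, for the same libraries, from 0.06 to 0.79 in dKD. The dKD value was 0.08 without the libraries of low mitochondrial share and 0.07 with the share as a covariate.

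The clearest differences within the set appeared between knockdown groups. From Klf5 KD to dKD, Dnmt3a fell by 1.18 on the log2 scale (log2 fold change -1.18, SE 0.292, adjusted p = 0.0187, edgeR), and no library of one group overlapped the other (exact permutation p = 0.0286, two-sided, the smallest that 4 against 3 can give). Dnmt3b rose over the same contrast, by a log2 fold change of 1.58 (SE 0.396, adjusted p = 0.0198, edgeR), with no overlap (exact permutation p = 0.0571, two-sided). Against Nr5a2 KD, Klf5 KD had less Dnmt3b (log2 fold change -1.89, SE 0.382, adjusted p = 0.00565) and more Dnmt3a (log2 fold change 0.91, SE 0.272, adjusted p = 0.0407), the latter short of 2-fold. With 3 libraries against 3, the exact permutation p was 0.1 for both genes, the smallest possible. Both pairs of groups share the Klf5 KD libraries, so the contrasts are not independent. Counted by the rule of adjusted p under 0.05 and at least 2-fold, 2 of 9 tested members were called from Klf5 KD to dKD, where 10.8% of all 12904 genes tested were called, and 1 of 9 between Klf5 KD and Nr5a2 KD, where 11.4% of 12668 were. By adjusted p alone it was 2 of 9 in each, beside 12.6% and 12.6% of all genes. Without the 4 libraries of low mitochondrial share, the values from Klf5 KD to dKD were -0.95 for Dnmt3a (adjusted p = 0.0799) and 1.06 for Dnmt3b (adjusted p = 0.2), with 2 libraries left in each group. The value of Dnmt3b between Klf5 KD and Nr5a2 KD was then -1.63 (adjusted p = 0.0293), and it had an adjusted p of 0.00901-0.0283 with any single library left out. From Klf5 KD to dKD, leaving out Klf5 KD replicate 2 ended both calls (adjusted p = 0.0736 for Dnmt3a and 0.054 for Dnmt3b), Klf5 KD replicate 1 or dKD replicate 3 that of Dnmt3b (0.0715 and 0.0608), and dKD replicate 4 that of Dnmt3a (0.0573). The difference of Dnmt3a between Klf5 KD and Nr5a2 KD passed in 1 of 6 such fits (adjusted p = 0.0282-0.136) and in 6 of 10 alternatives. Without the 4 libraries of low mitochondrial share it had an adjusted p of 0.0514. From Klf5 KD to dKD, library sizes from ERCC counts gave an adjusted p of 0.0933 for Dnmt3a and 0.0292 for Dnmt3b. A replicate block, whose numbers do not pair these groups, gave 0.115 and 0.0533.

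**Figure D2:**
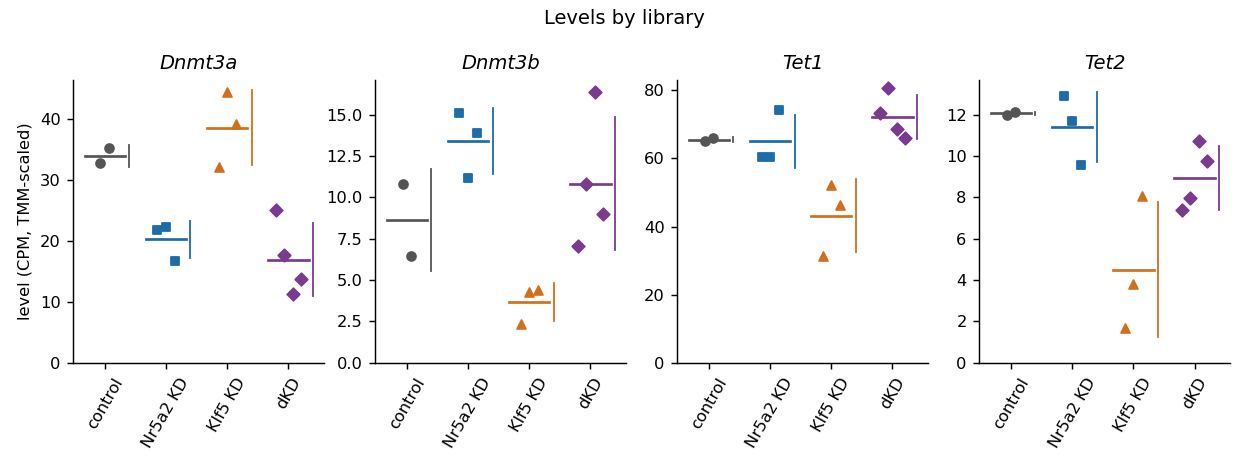
Levels of Dnmt3a, Dnmt3b, Tet1 and Tet2 in TMM-scaled CPM, with 1 point per library, a horizontal line at the group mean and a vertical line of 1 SD to each side. Dnmt3a is lower in both groups that had received Nr5a2 siRNA, and Dnmt3b, Tet1 and Tet2 have their lowest group mean in Klf5 KD.

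The ratio of Dnmt3a to Dnmt3b within a library, per length, does not depend on the scaling between libraries. It was looked at after the values of both genes were known and is given as a description. In control it was 0.933 and 1.67. In Klf5 KD it was 4.23, 3.2 and 2.73, and in Nr5a2 KD 0.443, 0.61 and 0.369. In dKD it was 1.08, 0.501, 0.212 and 0.468. Dnmt3a was the more abundant transcript in all 3 Klf5 KD libraries and Dnmt3b in all 3 Nr5a2 KD libraries, with the control libraries between these groups. Of the dKD libraries, 3 lay in or below the Nr5a2 KD range and replicate 1 lay between the 2 controls.

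**Figure D3:**
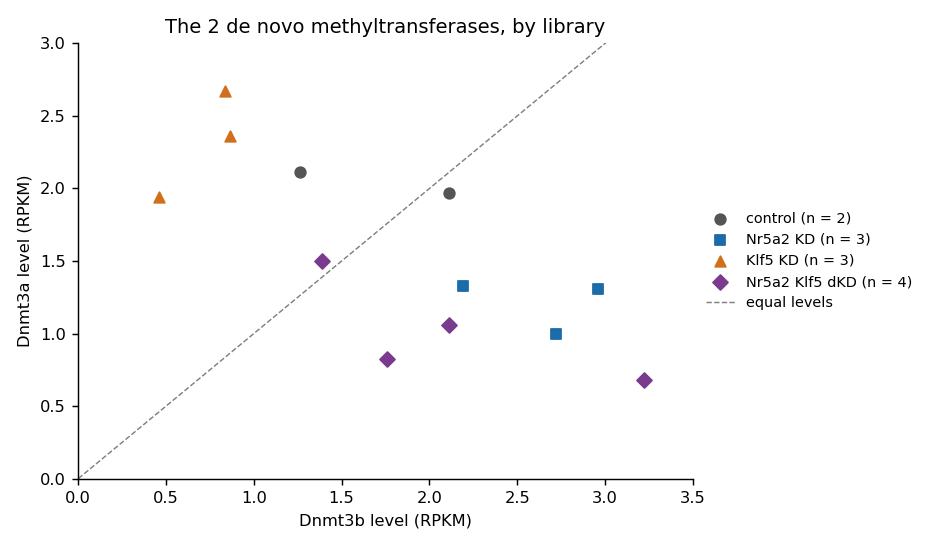
Dnmt3a level against Dnmt3b level, both in RPKM, with 1 point per library and a dashed line of equal levels. The 3 Klf5 KD libraries lie above the line (ratio 2.73-4.23) and the 3 Nr5a2 KD libraries below it (ratio 0.369-0.61).

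Dnmt3l (chr10:78041947-78063622, plus strand, with 67 exonic bases, 2.24%, shared with Aire) encodes the cofactor of the de novo enzymes. Both control libraries were near 50 CPM (50.5 and 50.6), and the Nr5a2 KD libraries were at 87, 72.9 and 79.4 CPM. The Klf5 KD libraries spread widely, at 85.6, 45.4 and 57.2 CPM, and the dKD libraries were at 50.4, 54, 79.1 and 67.1 CPM. Only the Nr5a2 KD group was separate from control in all libraries, with a log2 fold change of 0.68 (SE 0.223, 95% interval 0.20 to 1.17, adjusted p = 0.0804, edgeR). In dKD it was 0.35 (SE 0.248, adjusted p = 0.416), and from Nr5a2 KD to dKD the difference was -0.34 (95% interval -0.80 to 0.12, adjusted p = 0.999). With replicate numbers as a block, a pairing the labels do not give, it was -0.40 (adjusted p = 0.748). The dKD library was lower in each same-numbered pair, but only by 79.1 against 79.4 CPM in replicate 3. Without Nr5a2 KD replicate 3, the Nr5a2 KD value was 0.69 with an adjusted p of 0.0468. Within Klf5 KD and dKD, the libraries below 7% mitochondrial share had the highest Dnmt3l levels of their group. Without them the log2 fold change against control was 0.07 in dKD and 0.01 in Klf5 KD. Relative to the sum of Dnmt3a and Dnmt3b per length, Dnmt3l was at 4.15 and 5.02 in control, 6.83, 6.93 and 7.14 in Nr5a2 KD, 5.84, 5.71, 6.8 and 8.7 in dKD, and 12, 4.34 and 5.95 in Klf5 KD. By this ratio all libraries of Nr5a2 KD and dKD were above both controls, and the highest value was that of Klf5 KD replicate 1.

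Among the TET dioxygenases, Tet1 (chr10:62804570-62908996, minus strand) was the main transcript, at 81.1-92.7% of the summed TET level per length in all 12 libraries. Its level was 65 and 66 CPM in control, 60.5, 60.5 and 74.1 CPM in Nr5a2 KD and 73.3, 80.6, 68.6 and 66.1 CPM in dKD. In Klf5 KD it was 31.2, 52.1 and 46.2 CPM, below every other library. The log2 fold change against control was -0.60 in Klf5 KD (SE 0.289, adjusted p = 0.593, edgeR), 0.02 in Nr5a2 KD (SE 0.228, adjusted p = 0.972) and 0.18 in dKD (SE 0.202, adjusted p = 0.648). From Klf5 KD to dKD it was 0.75 (SE 0.241, adjusted p = 0.0575), just above the threshold, with no overlap of the groups (exact permutation p = 0.0286, two-sided). It passed in 5 of 10 alternative fits and in 0 of 7 fits with a library left out (adjusted p = 0.0695-0.137, log2 fold change 0.58-0.90). The dKD libraries were all above the controls and the Klf5 KD libraries all below them.

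Tet2 (chr3:133463679-133545139, minus strand, with 43 exonic bases, 0.255%, shared with Gm42567) was also lowest in Klf5 KD, but in dKD, unlike Tet1, it was below both controls in all 4 libraries. It was at 12 and 12.1 CPM in control, 12.9, 11.7 and 9.55 CPM in Nr5a2 KD and 7.4, 7.94, 10.7 and 9.74 CPM in dKD. In Klf5 KD it was at 1.66, 3.78 and 8.07 CPM, a spread of 72.5% (coefficient of variation) around a mean at 37.5% of control. The log2 fold change in Klf5 KD against control was -1.46 (SE 0.527, 95% interval -2.60 to -0.31, unadjusted p = 0.0164, adjusted p = 0.537, edgeR). The lowest value came from Klf5 KD replicate 1, which also had the lowest mitochondrial share (4.41%), and without it the log2 fold change was -1.04 (adjusted p = 0.654). Without replicate 3, the highest of the group, it was -2.16 (adjusted p = 0.133). With the mitochondrial share as a covariate it was -0.22 (adjusted p = 0.989). From Klf5 KD to dKD the log2 fold change was 1.03 (SE 0.463, adjusted p = 0.174), with overlapping groups, and without Klf5 KD replicate 3 it was 1.74 (adjusted p = 0.0297). Between Klf5 KD and Nr5a2 KD the difference was -1.39 (SE 0.49, adjusted p = 0.0823), and it passed in 4 of 10 alternative fits, DESeq2 among them (adjusted p = 0.0376), and in 1 of 6 fits with a library left out (log2 fold change -2.10 to -0.96). Tet3 (chr6:83362373-83459084, minus strand), known as the TET enzyme of the zygote, was at 5-26 counts per library, and its intervals against control on the log2 scale ran from -2.13 to 1.00 in Klf5 KD, from -1.33 to 1.57 in Nr5a2 KD and from -1.82 to 1.47 in dKD, so that a 2-fold difference was not detectable at this depth.

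The maintenance genes were low and differed little beyond their spread. Dnmt1 (chr9:20907209-20959888, minus strand) was at 4.77 and 6.44 CPM in control, 7.78, 7.51 and 6.03 CPM in Nr5a2 KD, 5.04, 5.61 and 7.78 CPM in Klf5 KD and 7.97, 10, 8.27 and 11 CPM in dKD. The dKD libraries were above every other library. Their log2 fold change was 0.75 against control (SE 0.345, 95% interval -0.00 to 1.51, adjusted p = 0.202, edgeR), 0.61 against Klf5 KD (SE 0.32, adjusted p = 0.253) and 0.39 against Nr5a2 KD (SE 0.283, adjusted p = 0.999). With the replicate block the last was 0.30 (adjusted p = 0.922). Uhrf1 (chr17:56303321-56323486, plus strand) rested on 5-34 counts per library, and its 2 control libraries stood at both ends of that range (0.758 and 4.56 CPM). The other groups were at 1.13-2.12 CPM (Nr5a2 KD), 0.734-1.44 CPM (Klf5 KD) and 0.827-2.27 CPM (dKD). The sign of its change against control therefore depended on which control was kept: without control replicate 2 the log2 fold change in Nr5a2 KD went from -0.65 to 1.16 and that in dKD from -0.64 to 1.17. Uhrf1 was too low to be tested in Klf5 KD against control.

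Trim28 (chr7:12999114-13031035, plus strand), the corepressor of KRAB zinc-finger proteins, had the highest counts of the set, 564-1337 per library. It was at 90.8 and 85.7 CPM in control, 133, 92.8 and 157 CPM in Nr5a2 KD, 120, 137 and 82.8 CPM in Klf5 KD and 105, 115, 144 and 143 CPM in dKD. All libraries of Nr5a2 KD and of dKD were above both controls, with log2 fold changes of 0.56 (SE 0.261, adjusted p = 0.212, edgeR) and 0.57 (SE 0.225, adjusted p = 0.143). In Klf5 KD it was 0.37 (SE 0.293, adjusted p = 0.739), with replicate 3 below both controls. In Nr5a2 KD and dKD the libraries of low mitochondrial share had the highest Trim28 levels, at 157 CPM and at 144 and 143 CPM. Without the libraries of low share the log2 fold change against control was 0.38 in Nr5a2 KD and 0.35 in dKD. With this share as a covariate it was 0.14 (adjusted p = 0.793) and 0.32 (adjusted p = 0.277).

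Tdg (chr10:82629828-82650799, plus strand), the glycosylase that removes oxidised methylcytosine, was at 0 in 9 of the 12 libraries. The other values were 1 count in control replicate 2, 3 counts in Klf5 KD replicate 2 and 0.5 counts in dKD replicate 2. A 0.5 is a read pair assigned to 2 genes. Of the exonic bases of Tdg, 367 (6.83%) are shared with Glt8d2, and whether this pair lay there was not tested. The gene passed the filter on low counts in no comparison, and no difference was detectable at this depth.

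Counted over the set, 9 of 10 members were tested in Nr5a2 KD and in dKD against control and 8 of 10 in Klf5 KD. None passed an adjusted p of 0.05 in edgeR in any of these 3 comparisons, and 2 members had an unadjusted p under 0.05 in each, beside 24.1% of all genes in Nr5a2 KD, 25% in dKD and 8.47% in Klf5 KD. With DESeq2, Dnmt3a passed in dKD (log2 fold change -0.99, adjusted p = 0.0381) and no other member did in the 3 comparisons. Of all genes tested, 7.86% were called in Nr5a2 KD, 7.24% in dKD and 0% in Klf5 KD, where 1088 genes had an unadjusted p under 0.05 and DESeq2 called 50. Libraries of the 2 groups did not overlap for 4 of 9 members in Nr5a2 KD (Dnmt3a lower; Dnmt3b, Dnmt3l and Trim28 higher), beside 42.5% of all genes. In dKD this held for 5 of 9 (Dnmt3a and Tet2 lower; Dnmt1, Tet1 and Trim28 higher), beside 36.2% of all genes. In Klf5 KD it held for 4 of 8, all lower (Dnmt3b, Tet1, Tet2 and Tet3), beside 27% of all genes. The median log2 fold change of the members was 0.12 in Nr5a2 KD, 0.18 in dKD and -0.22 in Klf5 KD, against 0.04, 0.05 and 0.00 over all genes tested. The 3 comparisons share the 2 control libraries.

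**Figure D4:**
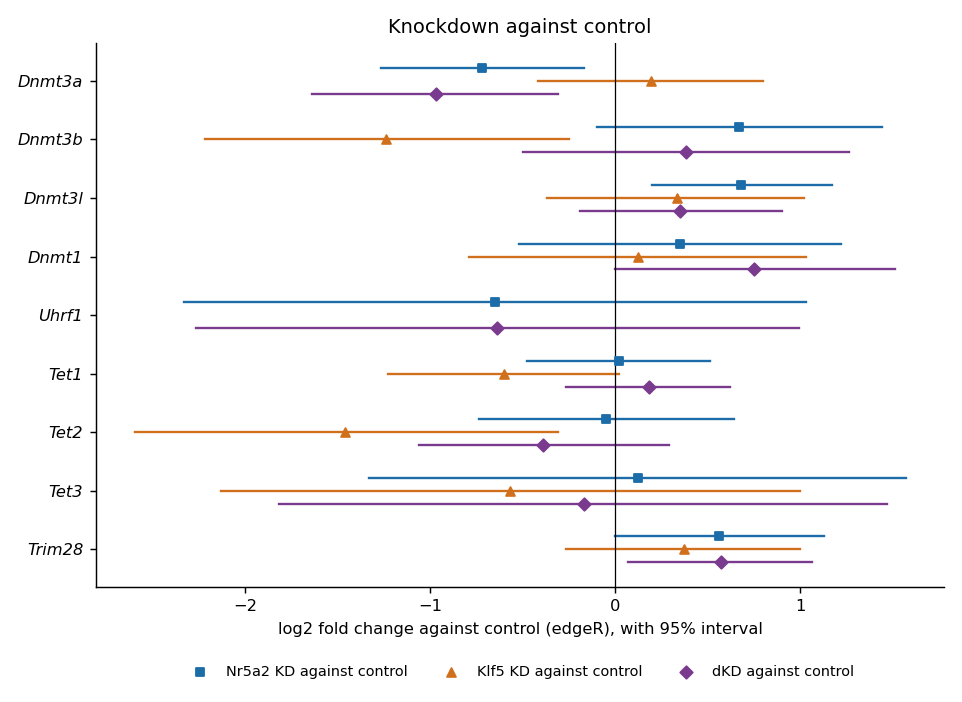
Log2 fold change against control with its 95% interval from edgeR for 9 members in the 3 knockdown groups; Tdg was not tested, nor was Uhrf1 in Klf5 KD. Dnmt3a lies below 0 in Nr5a2 KD (-0.72) and dKD (-0.97), while Dnmt3b (-1.24) and Tet2 (-1.46) have their lowest values in Klf5 KD; no member had an adjusted p under 0.05.

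From Nr5a2 KD to dKD, which asks what added loss of Klf5 did, 0 of 9 members were called, and 0% of all 13017 genes tested were (edgeR; 447 genes, and 0 members, had an unadjusted p under 0.05, and DESeq2 called 4 genes). Dnmt1 was the only member without overlap, beside 4.76% of all genes. The intervals still allowed sizeable differences, from -0.88 to 0.36 for Dnmt3a and from -0.98 to 0.39 for Dnmt3b on the log2 scale. Between the Klf5 KD and dKD groups, 4 of 9 members did not overlap (24.9% of all genes), and between Klf5 KD and Nr5a2 KD 5 of 9 did not (30.9% of all genes). The interaction term, which compares the dKD effect with the sum of the single effects, was called for 0 of 9 members and for 0% of all 14830 genes (715 at an unadjusted p under 0.05). Its smallest p among members was that of Tet1 (0.75, SE 0.323, unadjusted p = 0.0326, adjusted p = 0.95). The estimates for Tet2 (1.10, SE 0.604) and Dnmt3b (0.94, SE 0.536) were also above 0. Over the 9 members the estimates ran from -0.66 to 1.28, and 3 were below 0.

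The genes that work with these enzymes were described from 6 lists of 58 genes in all. In Nr5a2 KD, 49 were tested, 5 fell and 1 rose, beside 9.03% of all genes that passed. In dKD, 50 were tested, 4 fell and 2 rose, beside 8.34% of all genes, and in Klf5 KD 0 of 49 passed (2 at an unadjusted p under 0.05). The median log2 fold change of the lists was -0.27, -0.25 and -0.07. Idh1, which encodes the cytosolic isocitrate dehydrogenase that makes alpha-ketoglutarate, fell furthest. It was at 68.2 and 48.3 CPM in control, 8.73, 6.89 and 10.2 CPM in Nr5a2 KD, 110, 60.9 and 53 CPM in Klf5 KD and 13.5, 7.94, 5.43 and 9.21 CPM in dKD. Its log2 fold change was -2.73 in Nr5a2 KD (SE 0.281, adjusted p = 0.000435, edgeR) and -2.65 in dKD (SE 0.317, adjusted p = 0.00154), and it stayed past the threshold in every alternative and with each library left out in both.

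Parp1, a DNA-repair polymerase, was at 63.5 and 62.8 CPM in control and at 18.6-24.2 CPM in Nr5a2 KD and 18.9-26.8 CPM in dKD, with no overlap. It fell by 1.47 (adjusted p = 0.00345) and 1.46 (adjusted p = 0.00409) on the log2 scale, and the Klf5 KD libraries were at 81.9-98 CPM. Setd2, the methyltransferase of histone H3 lysine 36, a mark that recruits the de novo enzymes to gene bodies, fell from a mean of 178 CPM in control to 66.3 CPM in Nr5a2 KD (log2 fold change -1.40, SE 0.235, adjusted p = 0.00431) and 70.4 CPM in dKD (-1.30, SE 0.198, adjusted p = 0.00404). Ogt, the O-GlcNAc transferase that binds TET proteins, fell in Nr5a2 KD (-1.07, SE 0.234, adjusted p = 0.0155). In dKD its log2 fold change was -0.75 (adjusted p = 0.0939, edgeR), with all libraries below both controls. Kdm2b, a histone demethylase that binds unmethylated CpGs, fell in dKD (-0.95, SE 0.22, adjusted p = 0.023) and was the fifth gene to fall in Nr5a2 KD. Without either control or Nr5a2 KD replicate 1, Ogt (adjusted p up to 0.21) and Kdm2b (up to 0.183) did not pass in Nr5a2 KD. Without either control or dKD replicate 3 or 4, Kdm2b did not pass in dKD (up to 0.201). Setd2 did not pass without control replicate 1 in Nr5a2 KD (0.0662) and dKD (0.0722), nor Parp1 in dKD without either control (0.0559 and 0.0562). With library sizes from ERCC counts none of these 4 genes passed: in Nr5a2 KD the log2 fold change was -0.56 for Setd2 (adjusted p = 0.418), -0.66 for Parp1 (0.338), -0.23 for Ogt (0.748) and -0.23 for Kdm2b (0.752), and in dKD -0.50 for Setd2 (0.257), -0.67 for Parp1 (0.142) and -0.15 for Kdm2b (0.74). In Klf5 KD the mean level of Kdm2b stood at 95.1% of control, that of Ogt at 95%, Setd2 at 110%, Idh1 at 128% and Parp1 at 142%.

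The genes that rose were on the list of maintenance partners. Pcna, the sliding clamp of the replication fork, which binds DNMT1, rose in Nr5a2 KD (1.03, SE 0.291, adjusted p = 0.0472) and in dKD (1.16, SE 0.279, adjusted p = 0.0262). It was at 52.8 and 54.6 CPM in control, 109, 72.3 and 140 CPM in Nr5a2 KD and 91.5, 90.1, 155 and 130 CPM in dKD, and its highest values in these groups came from libraries of low mitochondrial share. Cdca7, which partners the remodeller HELLS, rose in dKD (0.87, SE 0.24, adjusted p = 0.0479), from 21.5 and 27.6 CPM to 38.8-48.7 CPM. In Nr5a2 KD its log2 fold change was 0.65 (adjusted p = 0.127, edgeR), with all libraries above both controls. Pcna did not pass without either control or Nr5a2 KD replicate 1 in Nr5a2 KD (adjusted p up to 0.293), nor without either control or dKD replicate 4 in dKD (up to 0.219), and Cdca7 passed in 1 of 6 such fits, the one without dKD replicate 1 (up to 0.359 in the others). Pcna in Nr5a2 KD passed in 7 of 10 alternative fits. Its log2 fold change was 0.48 where mitochondrial share entered as a covariate (adjusted p = 0.267). In dKD, Pcna passed in 9 of 10 alternatives (log2 fold change down to 0.75, adjusted p up to 0.0569) and Cdca7 in 6 of 10. Without the libraries of low mitochondrial share, Cdca7 in dKD was at 0.81 (adjusted p = 0.0832). Of the 9 genes of imprint protection and the TRIM28 complex, 0 passed in Nr5a2 KD or in dKD against control, with 4 at an unadjusted p under 0.05 in each, beside the 24.1% and 25% of all genes given above.

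Between knockdown groups the same lists gave 7 lower and 3 higher genes of 47 tested from Klf5 KD to dKD, and 8 higher and 0 lower of 44 tested in Klf5 KD against Nr5a2 KD. Of all genes, 869 were lower and 762 higher in the first contrast and 826 higher and 767 lower in the second, 12.6% of those tested in each. In the first contrast Idh1 (-3.03), Parp1, Setd2 (-1.46) and the heterochromatin protein gene Cbx1 (-1.05, adjusted p = 0.0171) fell furthest, and Mbd1, Gadd45g (1.93, adjusted p = 0.0362) and Cdca7 (0.82, adjusted p = 0.0499) rose. Mbd1, a methyl-CpG binding protein, had 1-3 counts in the Klf5 KD libraries and 8-38 in dKD, so its log2 fold change of 3.26 (SE 0.836) is loosely fixed. In the second contrast Idh1 (3.10), Parp1 (1.99), Setd2 (1.54) and Mtr (1.40, adjusted p = 0.0485), the methionine synthase gene, were highest. With single libraries left out, Idh1, Parp1 and Setd2 passed in every fit of both contrasts, Cbx1 in 5 of 7 (not without Klf5 KD replicate 1 or 2), Cdca7 and Gadd45g in 1 of 7 each and Mtr in 1 of 6. Mbd1 could be tested in 4 of these fits and passed in 2, not without Klf5 KD replicate 1 or 2. From Klf5 KD to dKD without the 4 libraries of low mitochondrial share, Cbx1 (adjusted p = 0.0518), Cdca7 (0.17) and Gadd45g (0.186) did not pass.

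**Figure D5:**
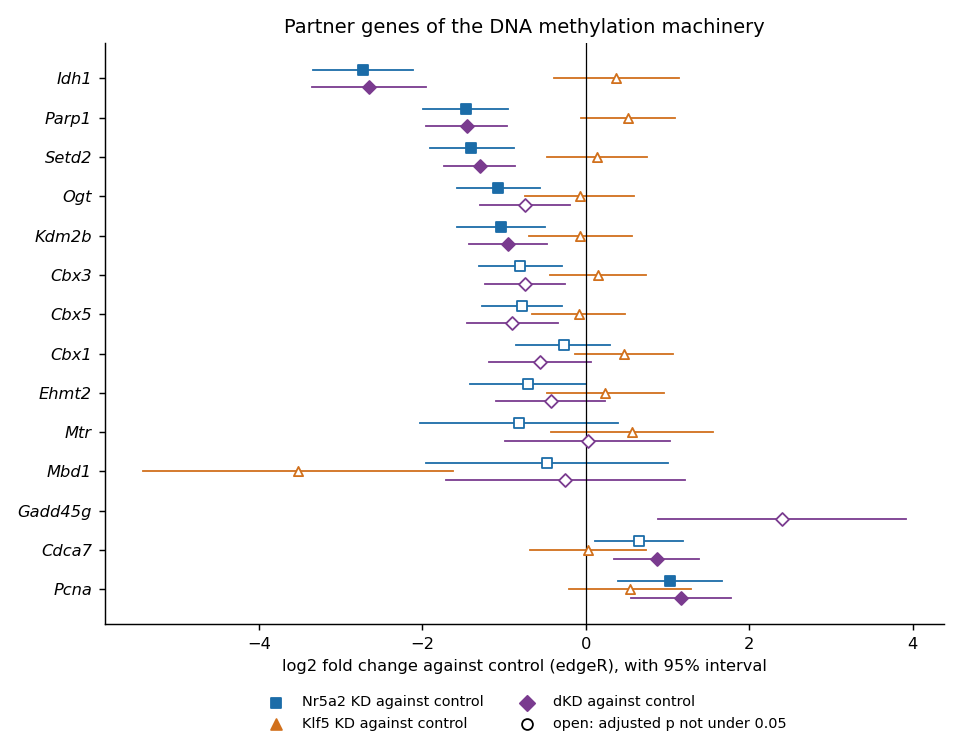
Log2 fold change against control with its 95% interval from edgeR for the 14 partner genes that passed an adjusted p of 0.05 in at least 1 comparison, control or direct. Filled symbols passed against control; Idh1, Parp1, Setd2, Kdm2b (all below 0) and Pcna (above 0) are filled in both Nr5a2 KD and dKD, no symbol is filled in Klf5 KD, and the genes were chosen on these values.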

How the data were processed

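RNA was sequenced from 12 libraries of pooled 8-cell mouse embryos in 4 groups. Per the file headers and the submitters' processing notes, the authors trimmed reads with Trim Galore 0.6.2, mapped them by STAR on GRCm38, to which spike-in and H2B-EGFP sequences had been added, and used featureCounts 2.0.1 to assign pairs to exons without regard to strand. Read pairs over overlapping genes were split, so the deposited values are estimated counts, of which 7.3-8.66% per library are not whole. The version of STAR is not given in the sources used here. The kit selected polyadenylated RNA, and for the instrument the labels name an Illumina or an Element machine and the study's methods only the Illumina one.

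Counts were rounded to whole numbers and tested with edgeR 4.0.16 (quasi-likelihood test, TMM, filterByExpr at its defaults of 10 counts and 15 in total, R 4.3.3), using only the groups compared. P-values were Benjamini-Hochberg adjusted over all genes tested. Genes passed at an adjusted p under 0.05 and were called if also changed at least 2-fold. The 92 ERCC rows stayed out of library sizes. Levels are TMM-scaled CPM over all libraries, or RPKM, CPM per kb of exon. Members were also compared by an exact two-sided permutation test of mean CPM. The tests were tried on simulated data.

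All 10 genes were named; of the wider lists, up to 4 genes per direction and comparison with the largest fold among those that passed. The members and lists were chosen with earlier results of these data known. Same-numbered Nr5a2 KD and dKD libraries had correlated deviations (0.13, 0.221 and 0.254), and these numbers were used as pairs in a replicate block. The labels give no pairing. Nr5a2 KD replicate 3 correlated as much with dKD replicate 4 (0.264), and both were of low mitochondrial share. Whether the numbers mark true pairs was not tested. In other groups same-numbered libraries did not deviate together. Alternatives were DESeq2 1.42.0, other scalings and filters, a fit of all libraries, a replicate block and leaving out each library. A mitochondrial covariate and a fit without the 4 libraries below 7% were added after the data were seen.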

Additional observations from a re-analysis of the deposited data

Results flagged for a closer look

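Dnmt3a and Dnmt3b differed between the effects of the knockdowns by a direct test of the groups. The log2 fold change of Klf5 KD against Nr5a2 KD was 0.91 for Dnmt3a and -1.89 for Dnmt3b, and that of dKD against Klf5 KD was -1.18 for Dnmt3a and 1.58 for Dnmt3b. Each had an adjusted p under 0.05 in edgeR. That of Dnmt3a in Klf5 KD against Nr5a2 KD did not hold with total counts (adjusted p = 0.0972), ERCC counts (0.419), the replicate block (0.0778) or without the 4 libraries of low mitochondrial share (0.0514). In dKD against Klf5 KD, Dnmt3a did not hold with ERCC counts (0.0933), the block (0.115) or without the 4 libraries (0.0799). Dnmt3b did not hold there with the block (0.0533) or without the 4 libraries (0.2). In contrasts with Klf5 KD, libraries share only a number (correlations -0.203 to 0.0594), so the block does not pair samples.

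Tet1 was below both controls in all 3 Klf5 KD libraries and above both in all 4 dKD libraries. The log2 fold change of dKD against Klf5 KD was 0.75, with an adjusted p of 0.0575 in edgeR, so the difference did not pass.

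Tdg stood at 0.0132 RPKM in dKD replicate 2, from 0.5 counts, while the other 3 dKD libraries were at 0. With the rest of the group at 0, any count sets a library apart in this way.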

How the results depend on the processing

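The fall of Dnmt3b in Klf5 KD against Nr5a2 KD had an adjusted p under 0.05 in 10 of 10 alternative fits (0.000103-0.0293) and with any library left out (log2 fold change -2.03 to -1.63). The number of members called was less stable. For dKD against control it was 0, but 2 with library sizes from ERCC counts (Dnmt1 and Trim28), 1 with all libraries in one fit (Dnmt3a) and 0-1 with single libraries left out, the 1 (Dnmt3a, adjusted p = 0.0177) without dKD replicate 1. For Klf5 KD against control it was 0, but 1 with the replicate block (Tet2, -2.23, adjusted p = 0.0036, in a fit that called 146 genes lower and 107 higher of 12838) and 2 by unadjusted p (Dnmt3b and Tet2). For dKD against Klf5 KD it was 2, but 1 with total counts or with ERCC counts (Dnmt3b), 0 with the replicate block (adjusted p = 0.115 for Dnmt3a and 0.0533 for Dnmt3b), 0 without the 4 libraries of low mitochondrial share and 0-3 with single libraries left out, the 3 (with Tet2 added) without Klf5 KD replicate 3. For Klf5 KD against Nr5a2 KD it was 1, but 2 with DESeq2, without a filter, with all libraries in one fit, without a fold minimum or by unadjusted p, 3 with the mitochondrial covariate and 1-2 with single libraries left out. In other comparisons it stayed at 0 in the fits run. The cause of these moves was not tested, apart from the fits with fewer libraries, which have fewer replicates. The replicate block changed no call in dKD against Nr5a2 KD, where the numbers were used as pairs (Dnmt3a -0.22, Dnmt3b -0.28, Dnmt3l -0.40, Dnmt1 0.30). Other pairs of groups share only a number (correlations -0.203 to 0.0594).

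Over members and partner genes, 1251 refitted log2 fold changes kept their sign and their side of the threshold, 158 lost significance, 21 gained it and 64 changed sign, none of which had passed. In Nr5a2 KD against control these were Tet2 with total counts (0.05), ERCC counts gave Dnmt3a 0.02, Tet2 0.69 and Uhrf1 0.10, all libraries in one fit gave Tet1 -0.01, the block Tet1 -0.11 and Tet2 0.05, the mitochondrial covariate Tet1 -0.18 and Tet2 0.10, and the fit without the 4 libraries Tet1 -0.09 and Tet2 0.06. With single libraries left out, Tet1 ran from -0.09 to 0.09, Tet2 from -0.13 to 0.06, Tet3 from -0.06 to 0.28 and Uhrf1 from -1.42 to 1.16. In dKD against control, ERCC counts gave Tet2 0.43, Tet3 0.60 and Uhrf1 0.20, the covariate Tet3 0.18 and the fit without the 4 libraries Tet3 0.16; with single libraries left out Tet3 ran from -0.79 to 0.06 and Uhrf1 from -1.40 to 1.17. In Klf5 KD against control, ERCC counts gave Tet1 0.05 and Tet3 0.08, the block Dnmt1 -0.05 and the covariate Dnmt3l -0.14 and Trim28 -0.03, and Dnmt1 ran from -0.07 to 0.36. In dKD against Nr5a2 KD, total counts gave Uhrf1 0.07 and Trim28 0.04, ERCC counts Uhrf1 0.10, no filter Uhrf1 0.01 and Trim28 0.01 and the covariate Uhrf1 0.02; Uhrf1 ran from -0.21 to 0.22 and Trim28 from -0.19 to 0.19. In dKD against Klf5 KD, Dnmt3l was -0.01 with DESeq2, DESeq2 size factors or no filter and -0.00 with all libraries or the block; Dnmt3l ran from -0.20 to 0.33 and Trim28 from -0.03 to 0.31. In Klf5 KD against Nr5a2 KD, Trim28 ran from -0.37 to 0.00. For the interaction, ERCC counts gave Dnmt1 -0.27 and Tet3 -0.33, the covariate Tet3 -0.19 and Trim28 0.02 and the fit without the 4 libraries Dnmt1 -0.01; Uhrf1 ran from -0.52 to 2.04 and Tet3 from -0.36 to 0.50.

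With ERCC counts, the median over all genes tested moved to 0.82 in Nr5a2 KD, 0.84 in dKD and 0.66 in Klf5 KD against control, and the called genes in dKD from 529 lower and 464 higher to 178 and 2838. The 2 control libraries limit every comparison with control, and low counts limit Tet3, Uhrf1 and Tdg.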
